A study of Rattus norvegicus with 14 samples.

Results

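The whole postnatal span of the rat epididymis was compared by setting the 3 pools taken at day 60 against the 3 pools taken at day 7, out of 14 pools in all. The members were found from the sample titles, and every pool was whole epididymides of Sprague-Dawley rats with no treatment and no altered allele. Each pool gave 1 Affymetrix RatGene 2.0 ST array from total RNA of frozen tissue. Pups of day 7 and day 18 were kept with their lactating mothers, whereas rats of day 28 and day 60 were fed freely. The 4 pools of day 18 and the 4 of day 28 were used to show when a net change came about and which genes stood apart only between its ends. The labels do not state the number of animals in a pool, and nothing there says that the pools came from separate animals, so the p-values measure the spread between these pools.

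The epididymis is the long coiled duct in which sperm leaving the testis mature, become motile and are stored. Its lining holds principal cells, which secrete proteins into the lumen under the control of androgens and of factors from the testis, clear cells, which acidify the fluid, and basal cells. The duct derives from the Wolffian duct and goes on growing and differentiating after birth, and sperm reach it only at puberty. A newborn duct is therefore a growing tube in loose mesenchyme, and a mature one is a secreting, sperm-filled organ wrapped in muscle.

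Values were the deposited log2 signals, and 18166 genes were tested with 1 array cluster each. A gene is said to have risen or fallen where its adjusted p, from limma's moderated test with Benjamini-Hochberg adjustment over all genes tested, was under 0.05. The level reached by the top 5% of 1342 olfactory and vomeronasal receptor genes, a log2 signal of 4.92, served as the background; where the lower age had its mean under it, the fold is given as "at least", with each array's value raised to that level. Pools of day 7 correlated with each other at 0.994 to 0.9949 across genes, those of day 60 at 0.9935 to 0.9945, and pools of the 2 ages at 0.914 to 0.918. The first principal component took 62.8% of the variance and placed the day 7 pools between -67.5 and -67.42 and the day 60 pools between 49.73 and 51.74. The tissue's own markers were present at day 60: Lcn8, a lipocalin of the epididymal lumen, measured 11.96 ± 0.03 (SD, n = 3), Adam7 13.22 ± 0.09 and Crisp1 11.65 ± 0.08. Because these were whole organs, a change in the number of cells of a type and a change in RNA per cell cannot be told apart.

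From day 7 to day 60, 3935 genes rose (21.7% of those tested) and 5011 fell (27.6%), which is 49.2% in all. The median difference over all genes was -0.03 on the log2 scale and the median SE was 0.119. Falls outnumbered rises, but rises were larger: 1280 genes (7.05%) rose and 1141 (6.28%) fell at least 2-fold, 449 (2.47%) rose and 202 (1.11%) fell at least 4-fold, and 230 (1.27%) rose and 29 (0.16%) fell at least 8-fold. All of the genes that changed at least 2-fold had day 7 and day 60 pools that did not overlap. That was common, since it held for 10508 of the 18166 genes tested, more than the 8946 that were called. Of the 230 genes with the largest rises, 101 had a day 7 mean under the background. Of the 29 with the largest falls, 11 ended under it at day 60.

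**Figure D1:**
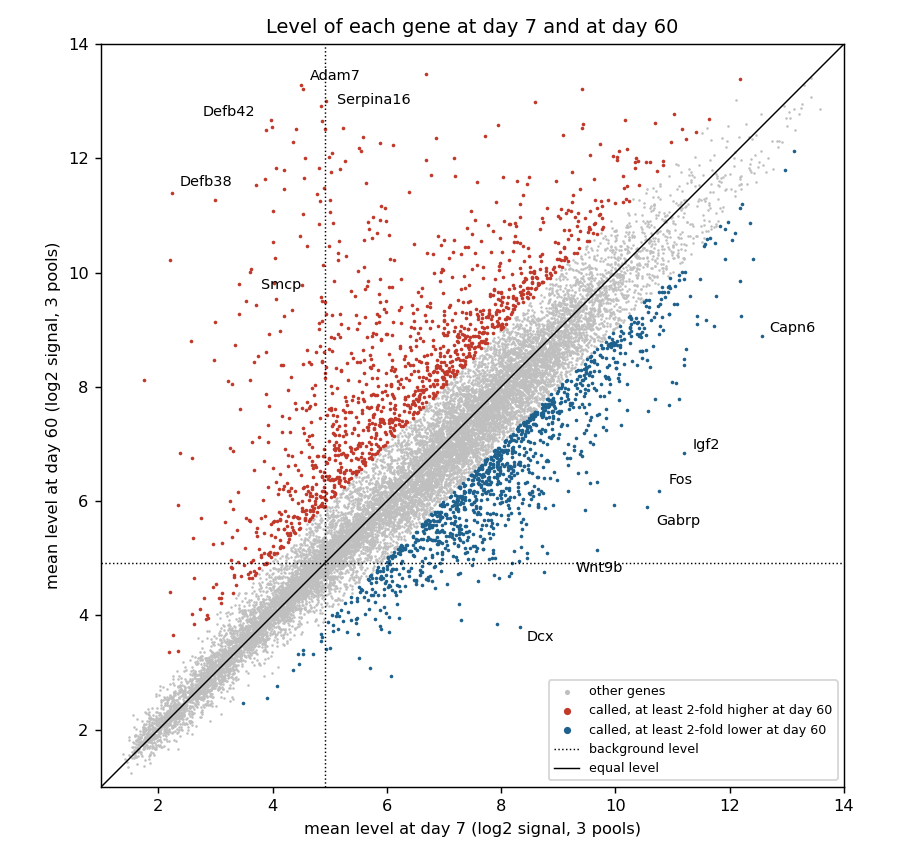
Each point is 1 gene, with its mean log2 signal over 3 pools at day 7 on the horizontal axis and at day 60 on the vertical axis. Red points rose and blue points fell at least 2-fold with an adjusted p under 0.05, dotted lines mark the background of 4.92, and the red cloud reaches much farther from the line of equal level than the blue one, with 230 genes beyond 8-fold against 29.

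The 12 largest rises of genes with an established name were mostly of genes whose products are secreted into the lumen or carried on sperm. Defb38, a beta-defensin (a small cationic antimicrobial peptide), measured 2.79, 2.16 and 1.78 in the 3 day 7 pools and 11.42, 11.37 and 11.36 in the 3 day 60 pools. That is a difference of 9.14 ± 0.24 (SE; adjusted p = 4.3e-13 by limma) and a rise of at least 88.3-fold, since all its day 7 pools lay under the background. Adam7, a membrane protein of the ADAM family made by the epididymis and transferred to sperm, went from 4.52, 4.23 and 4.85 to 13.14, 13.31 and 13.20, at least 315-fold. Crisp3, a cysteine-rich secretory protein, went from 3.87, 3.93 and 4.10 to 12.64, 12.78 and 12.56, at least 214-fold. The day 60 pools of each of these lay close together, whereas the day 7 pools of Defb38 ran from 1.78 to 2.79. Pools of the 2 ages could not overlap in the 12 genes, because that was part of the rule that chose them. The serpins, a family of protease inhibitors, gave Serpina1fl2 (at least 329-fold), Serpina1f (at least 233-fold) and Serpina16, whose day 7 mean of 4.94 was just above the background and which rose 269-fold. Pate5 and Pate10, small secreted proteins with a Ly6-like fold, rose at least 191-fold and at least 81.4-fold. Spag11c, of a sperm-associated family related to the beta-defensins, rose at least 189-fold, and the beta-defensins Defb42, Defb41 and Defb44 rose at least 198-fold, 164-fold and 97.5-fold. Near-identical copies, such as the serpin pair and some beta-defensins, may share probes on the array.

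These 12 genes did not rise together. Serpina16 already had 82.3% of its net log2 change at day 18 and Crisp3 78.5%, and Crisp3 was slightly past its day 60 level at day 28. Pate5 and Defb41 had 3.9% and 8.3% at day 18 and 73.2% and 68.5% at day 28. Defb42 stayed at 4.46, 4.39, 4.14 and 3.79 in the day 18 pools and at 4.85, 4.57, 4.37 and 4.18 in the day 28 pools, all under the background, and then measured 12.54, 12.55 and 12.55 at day 60. It had 5.9% of its net change at day 28, whereas the other 11 genes had between 68.5% and 102.8%. The span thus holds genes that had most of their change at day 18 and a gene that was still under the background at day 28.

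**Figure D2:**
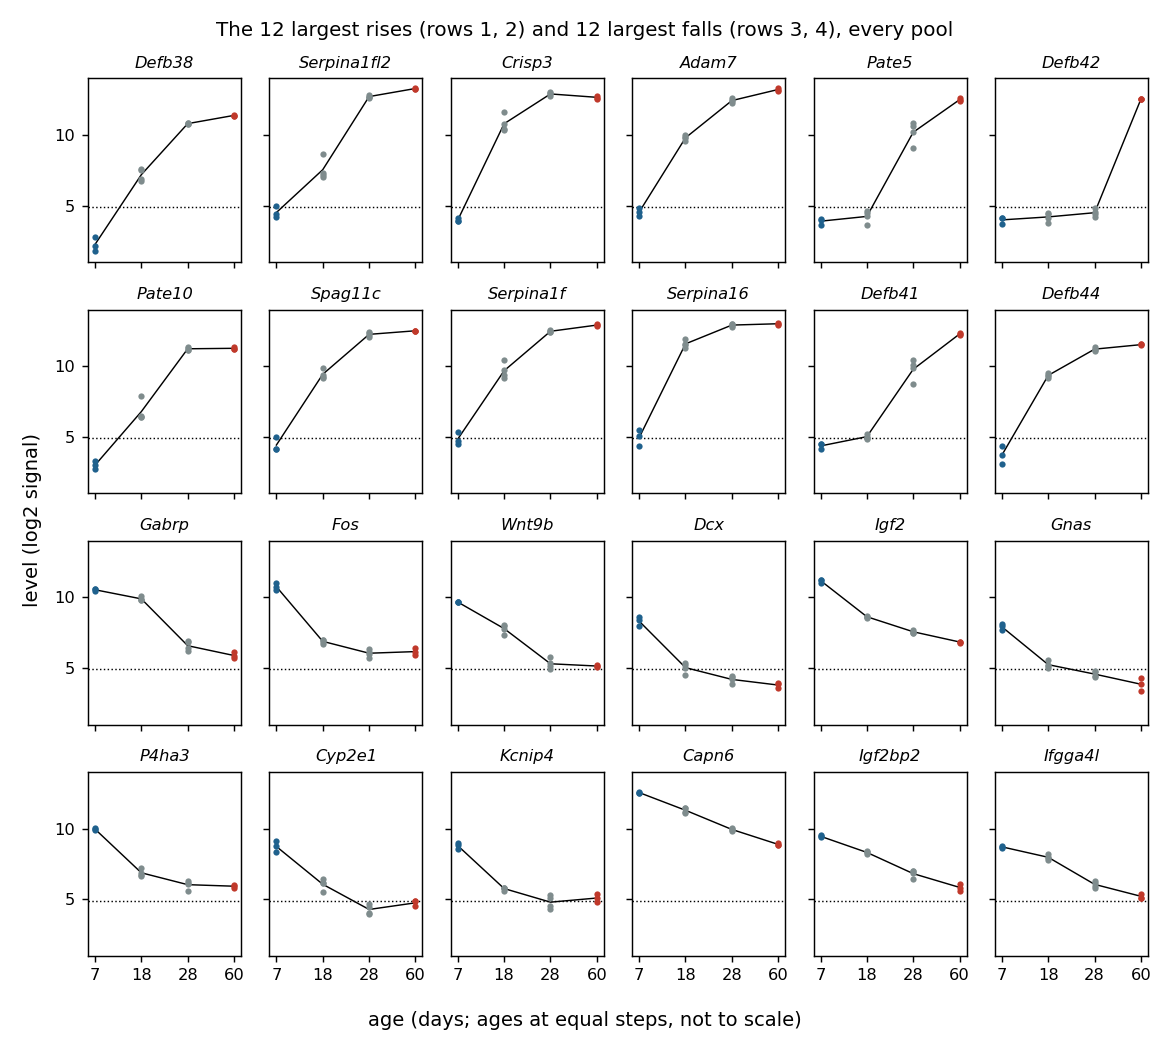
Level (log2 signal) of the 12 genes with the largest rises and the 12 with the largest falls at each age, 1 point per pool (blue day 7, grey days 18 and 28, red day 60), lines through the means, dotted line at the background. Defb42 stays under the background until day 28 and stands at 12.55 at day 60, whereas Fos has most of its fall by day 18.

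Defb41 and Defb42 are neighbours. Their transcription starts lie 13372 bases apart on chromosome 15 of the rat genome build GRCr8, facing away from each other, and the 250 bases before each start, from RefSeq, are shown because the genes differ so much in timing. Capitals mark the androgen receptor half-site AGAACA on either strand (TGTTCT on the other).
Defb41, chr15:41430732-41430981, plus strand: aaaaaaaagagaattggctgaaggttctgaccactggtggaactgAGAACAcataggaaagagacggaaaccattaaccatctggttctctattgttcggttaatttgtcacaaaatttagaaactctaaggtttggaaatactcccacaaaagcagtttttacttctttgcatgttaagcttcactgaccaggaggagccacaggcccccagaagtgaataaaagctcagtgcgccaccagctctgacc
Defb42, chr15:41417611-41417860, minus strand: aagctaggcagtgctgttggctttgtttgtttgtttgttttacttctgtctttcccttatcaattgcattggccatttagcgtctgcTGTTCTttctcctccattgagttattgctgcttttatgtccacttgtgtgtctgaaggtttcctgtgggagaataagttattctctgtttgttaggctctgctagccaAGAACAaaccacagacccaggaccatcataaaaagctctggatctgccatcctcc
The half-site begins 205 bases before the start of Defb41, and 163 and 55 bases before that of Defb42. Over promoters of 250 bases before and 50 after the start, 10 of 24 beta-defensins with a sequence held it (41.7%), against 9 of 32 luminal secretory genes (28.1%) and 15.9% of all 14503 measured genes with a sequence. A full element of a half-site and its reverse complement 3 bases apart was in none of these promoters. A match is only a run of letters, and no binding was measured here. The beta-defensins with the half-site were not all genes that rose. Defb52 held it but differed by 0.04 without a call, and Defb40, which also held it, rose by only 0.33. The promoters of Defb10 and Defb2 are nearly alike, so their matches are not independent.

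The list of luminal secretory proteins had 42 measured members, of which 40 rose, 39 of them at least 2-fold, and 1 fell, with a median difference of 6.10. Of the 37 beta-defensins measured, 32 rose and none fell, with a median of 4.77. Rnase9 and Rnase12, ribonuclease A family members found in the epididymis, rose at least 120-fold and at least 117-fold, and Crisp1, which binds to sperm in the duct, at least 106-fold. Lcn5, a retinoic acid-binding lipocalin, went from 7.24, 6.35 and 6.46 to 13.52, 13.44 and 13.47, a 110-fold rise. Lcn8, whose start lies 5262 bases from that of Lcn5 on chromosome 3, went from 5.21, 5.28 and 5.31 to 11.95, 11.99 and 11.94, a 104-fold rise. The pair ended with net changes of 6.79 ± 0.17 and 6.70 ± 0.32 (SE), but Lcn5 had 79.7% of its change at day 18 and Lcn8 1.9% at day 18 and 27.4% at day 28. Cst11 and Cst8, cystatin-like protease inhibitors, were as late, with 20.1% and 14.5% at day 28. Abundant secretory genes that were well above background from the start rose less: Clu, the chaperone clusterin, by 1.21 ± 0.07 (SE) and Npc2, a cholesterol-binding protein, by 1.93 ± 0.07. Wfdc2, a whey acidic protein-type inhibitor, went the other way, from 9.57, 9.53 and 9.51 to 8.41, 8.19 and 8.06 (difference -1.32 ± 0.09, adjusted p = 1.7e-08), after a mean of 10.80 at day 18. The remaining member, Serpina9, lay under the background at both ages. Among the beta-defensins the 5 without a call were Defb24, Defb52, Defb4, Defb36 and Defb33, with differences from 0.01 to 0.23, and Defb40 differed by 0.33 (adjusted p = 0.042) at a level that was already 8.82 at day 7.

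Genes of the cell types of the lining changed in different ways. Of 20 measured genes of clear and narrow cells, 16 rose and 1 fell, with a median of 1.27. Rhcg, an ammonia transporter, rose from 5.99 ± 0.07 to 10.89 ± 0.13 (SD, n = 3), 30.1-fold. Atp6v0d2, a subunit of the proton pump, went from 3.69, 4.24 and 4.48 to 8.49, 8.29 and 8.39, at least 11.1-fold, and stood at 8.53 at day 18. Foxi1, the transcription factor of acid-secreting cells, measured 8.02 at day 7, 9.80 at day 18 and 8.51 at day 60, a net rise of 0.49 ± 0.10 (SE). The 11 members that rose at least 2-fold had a median of 108% of their net change at day 18. The member that fell was Slc4a1, a bicarbonate exchanger also carried by red blood cells; without 1 day 7 pool (replicate 2) or 1 day 18 pool (replicate 1) 2 members fell.

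Basal cell genes split evenly, 7 of 18 up and 7 down, with a median of -0.05. Among those that rose, Tp63, the transcription factor of basal cells, went from 5.01, 5.28 and 5.51 to 7.45, 7.44 and 7.46, Krt14 rose 6.82-fold and Krt15 at least 6.54-fold. Those that fell included Itgb6, an epithelial integrin, from 9.62, 9.27 and 9.77 to 7.08, 7.13 and 6.90, and Cdh3, P-cadherin, which fell by 1.69 ± 0.09 (SE). Krt17, a basal keratin, fell by 1.54 ± 0.20, and Ngfr, a neurotrophin receptor, fell by 1.15 ± 0.12. Columnar epithelium gave 11 rises and 4 falls among 19 genes, led by Prom1, a protein of apical membrane protrusions (9.41 to 12.53), and by Krt7, a simple-epithelium keratin (9.46 to 7.20). Epcam, a general epithelial marker, fell by only 0.33 ± 0.09, and Cdh1, E-cadherin, rose by 0.30 ± 0.08. Ciliated cell genes, 4 up and 4 down of 18, had a median of 0.02. Each share was 22.2%, near the 21.7% and 27.6% of all genes tested.

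Among genes of the barrier and of transport, the share that rose was above that of all genes tested, and the share that fell was not. Tight junction genes gave 12 rises and 7 falls of 28. Of its 19 claudins, which set what passes between cells, 7 rose, 5 fell and 7 did not pass the threshold. Cldn2, a pore-forming claudin, went from 6.01, 5.50 and 5.69 to 8.94, 8.97 and 8.74 and Cldn23 rose 8.12-fold, while Cldn6, a claudin of embryonic epithelia, went from 10.89, 10.51 and 10.69 to 7.94, 7.68 and 7.74 and Cldn9 fell by 2.53 ± 0.15 (SE). None of these pools overlapped between the ages. Fluid and solute transport gave 20 rises and 6 falls of 39 (51.3% and 15.4%). Slc38a5, an amino acid transporter, rose 38.8-fold, Aqp9, a channel for water and neutral solutes, went from 5.23, 4.93 and 5.26 to 10.39, 10.38 and 10.29 (37-fold), and Slc9a3, the sodium and proton exchanger, rose 8.36-fold with 39.2% of its change at day 28. Cftr, the chloride channel, fell by 1.70 ± 0.13, and Kcnj16, a potassium channel subunit, went from 7.22, 7.09 and 7.56 to 4.05, 3.62 and 4.06, at least 5.17-fold lower. Cftr was lowest at day 28, at 7.06.

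Among genes of the machinery for making secreted proteins, rises outnumbered falls. Of 56 genes of folding in the endoplasmic reticulum, 40 rose and 2 fell, with a median of 0.58. Those shares were 71.4% and 3.57%, against 21.7% and 27.6% of all genes tested. Agr2, a disulphide isomerase of mucus-secreting cells, went from 5.08, 4.92 and 4.42 to 9.09, 8.94 and 8.98, and Hspa5, the major chaperone of that compartment, rose by 1.06 ± 0.07 (SE). Creb3l1 fell by 1.18 ± 0.11 and Atf4 fell by 0.44 ± 0.08, both transcription factors of the stress response, and Xbp1, a further one, differed by 0.16 with an adjusted p of 0.063. Golgi glycosylation genes gave 22 rises and 11 falls of 47 (46.8% and 23.4%), with a median of 0.29. St6galnac1, which adds sialic acid to mucin-type sugars, had means of 4.02, 3.69 and 3.86 at days 7, 18 and 28 and then measured 9.85, 9.78 and 9.81 at day 60, a rise of at least 29.7-fold. All of its change came after day 28.

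Among enzymes of redox defence and lipid supply, rises outnumbered falls. Glutathione and antioxidant genes gave 25 rises and 9 falls of 45. Gsta1, a glutathione transferase, rose 16.1-fold, and Gsta3, a further one, went from 5.10, 4.96 and 5.37 to 8.88, 9.03 and 8.86. Gstm5, a transferase of another class, fell from 11.02 ± 0.11 to 9.45 ± 0.16 (SD, n = 3). Cholesterol synthesis gave 16 rises and 1 fall of 20, led by Ebp (7.82-fold) and Tm7sf2 (6.29-fold), both enzymes of sterol ring modification; Dhcr7, which encodes the last reductase of the pathway, fell by 0.56 ± 0.09 (SE). Glycolysis gave 11 rises and 1 fall of 18, with Hk2, a hexokinase, at 6.51-fold. The mitochondrial respiratory chain gave 20 rises and 18 falls of 79 and a median of -0.04. Its shares of 25.3% and 22.8% were near the 21.7% and 27.6% of all genes tested. The 20 rises became 13 without day 7 replicate 2, day 60 replicate 1 or day 60 replicate 3, and 11 with arrays centred on their medians. Its largest rise, Ndufv3 (6.76 to 9.04), stood apart from the rest of the list. Polyamine genes gave 5 rises and 3 falls of 11; the largest rise, of Oaz3 by 4.31, is of a gene of spermatids, and Sat1, which acetylates polyamines, rose by 2.57. Adipocyte markers moved with these metabolic lists: 20 of 24 rose and 1 fell, the pools' median level went from 6.03 to 6.29 at day 7 to 7.53 to 7.65 at day 60, Adipoq rose 17.1-fold and Lep at least 3.72-fold. Their part in the result was not tested.

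Genes of hormone handling rose in a larger share than all genes tested, whereas the share that fell was lower or near. Of 32 genes of steroid receptors and enzymes, 14 rose and 4 fell (43.8% and 12.5%, against 21.7% and 27.6% of all genes tested). Hsd17b11, a hydroxysteroid dehydrogenase, rose from 8.24 ± 0.01 to 10.64 ± 0.06 (SD, n = 3) and Fkbp5, a chaperone induced by steroids, from 7.89 to 9.89. The falls were of Pgr, the progesterone receptor (at least 1.49-fold), Esr1, the oestrogen receptor alpha, from 8.53, 8.26 and 8.39 to 7.01, 6.26 and 6.58, Rxfp2, the receptor of the testis hormone INSL3, and Hsd11b2, which inactivates glucocorticoids. The androgen receptor gene was not analysed here. Retinoid genes gave 10 rises and 8 falls of 26 (38.5% and 30.8%). In that list Rdh16, a retinol dehydrogenase, was 13.9-fold higher while Crabp1, a carrier of retinoic acid, fell by 2.24 ± 0.19 (SE). Among the makers of retinoic acid Aldh1a1 rose from 10.96 to 12.29 while Aldh1a2 fell from 10.15 to 8.40.

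The 12 largest falls were of genes with varied roles. Gabrp, the pi subunit of the GABA-A receptor, went from 10.63, 10.43 and 10.58 to 5.71, 5.83 and 6.12, a 25.2-fold fall (difference -4.66 ± 0.17, adjusted p = 9.1e-12). Wnt9b, a Wolffian duct ligand, went from 9.67, 9.66 and 9.71 to 5.15, 5.21 and 5.07, 23.1-fold lower, and Igf2, the fetal growth factor, from 11.05, 11.27 and 11.27 to 6.88, 6.80 and 6.87, 20.4-fold lower. Pools that did not overlap were again part of the rule by which these genes were chosen. Fos, an AP-1 transcription factor, fell 24.2-fold, Dcx, a microtubule-binding protein of young neurons, at least 10.6-fold, and P4ha3, a subunit of the collagen prolyl hydroxylase, 16.5-fold. Cyp2e1, a cytochrome P450, fell at least 14.2-fold, Kcnip4, which binds potassium channels, 13.1-fold, Capn6, a calpain without protease activity, 12.7-fold, and Ifgga4l, an interferon-inducible GTPase-like gene, 11.3-fold. Igf2bp2, which binds the messenger RNA of Igf2 and others, fell 12.3-fold. The cluster named Gnas fell at least 8.01-fold, but this locus makes several transcripts and the cluster was not traced to one of them. Gabrp had 13.9% of its fall at day 18 and 85.0% at day 28, Capn6 34.1% and 71.1%, and Fos 84.2% at day 18.

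Imprinted genes, expressed from one parental copy and rich in regulators of fetal growth, gave 13 falls and 1 rise of 17 measured, with a median of -1.18. Besides Igf2, Zim1 went from 8.33, 8.19 and 8.03 to 4.76, 4.79 and 4.65, Plagl1, a zinc-finger regulator of the group, from 11.06, 11.17 and 11.12 to 7.96, 7.53 and 7.89, and Grb10, an adaptor that dampens growth-factor signalling, fell by 2.61 ± 0.09 (SE). The rise was of Asb4, which lay under the background at both ages, and was not called without day 7 replicate 3. Fetal growth regulators gave 10 falls and 1 rise of 17, led by Igf2bp2 and by Hmga2, a chromatin protein, which fell at least 1.52-fold; the rise was of Arid3b, by 0.30, and was lost without day 7 replicate 1 or day 60 replicate 2. Of 19 IGF system genes 11 fell, among them Igfbp2 (6.35-fold) and Irs1 (3.28-fold), and 3 rose, among them Igf1, from 10.94 to 11.69 after 9.85 at day 18. Igf2, the main growth factor of the pair before birth, and Igf1, the main one after it, thus moved in opposite directions.

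In each of the lists of patterning genes more members fell than rose, with shares that fell between 37.5% and 60.7% against 27.6% of all genes tested. In the Wnt pathway 25 of 49 genes fell and 7 rose. Lgr5, a receptor and target of the pathway, went from 9.68, 9.58 and 9.75 to 7.77, 7.40 and 7.34, and Notum, a feedback inhibitor, fell by 1.86 ± 0.13 (SE). The rises included Wif1, a secreted inhibitor, by 1.85 ± 0.14, and Lef1, a nuclear effector, by 1.72 ± 0.14. The BMP and activin pathway gave 17 falls and 10 rises of 44, in which the ligand gene Bmp7 fell by 1.45 ± 0.09 and Nog, an inhibitor of BMPs, rose by 1.48 ± 0.14. Its 10 rises became 5 or 6 without any 1 day 7 pool or without day 60 replicate 3, and 5 with arrays centred on their medians. Notch genes, 8 down and 5 up of 20, changed little, the largest being Jag2, a ligand, by 1.05. Transcription factors of the Wolffian duct gave 17 falls and 5 rises of 28. Lhx1 went from 7.80, 7.10 and 7.65 to 4.87, 5.30 and 4.81 and Osr1 fell by 1.94 and Tcf21 fell by 1.97, both factors of the mesenchyme. Pax2 and Pax8, which specify the duct, rose from 9.01 to 10.11 and from 9.97 to 10.72, and Tfap2b from 7.09, 7.22 and 7.58 to 10.28, 10.34 and 10.34. Shh, a ligand of the epithelium that is on none of these lists and was named after its values were seen, measured 9.21 at day 7, 9.49 at day 18 and 6.76 at day 60. Hox genes gave 12 falls and 7 rises of 32 and no rise reached 2-fold, the largest being Hoxa2 by 0.95.

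Cell division genes fell without exception. All 35 measured genes of mitosis and all 45 of DNA replication fell, against 27.6% of all genes tested, with medians of -2.10 and -1.34. Ect2, which drives cytokinesis, went from 8.47, 8.38 and 8.47 to 5.68, 5.56 and 5.56, Top2a, which untangles chromosomes, from 9.78, 9.74 and 9.82 to 7.24, 7.35 and 7.29, and Mki67, the Ki-67 antigen, from 10.51, 10.67 and 10.63 to 8.40, 8.30 and 8.31. The smallest falls in the lists were of Cdc25c, which fell by 0.39 ± 0.15 (SE; adjusted p = 0.0445 by limma), and Rfc1, which fell by 0.30 ± 0.12 (adjusted p = 0.047). The 31 mitosis genes that fell at least 2-fold had a median of 33.4% of the fall at day 18 and 53.6% at day 28, and Pcna, the clamp of DNA polymerase, had 29.5% at day 28.

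The mitosis promoters share motifs that the lists did not use. Printed here are the 250 bases before the start of Cdk1, the mitotic kinase (8.41 ± 0.10 to 6.31 ± 0.18; SD, n = 3), and of Cdc20, which activates the ubiquitin ligase of anaphase (8.15 ± 0.06 to 6.07 ± 0.04), from RefSeq on GRCr8. Capitals mark the CCAAT box, CCAAT or ATTGG on the other strand, and the cell cycle homology region, TTTGAA or TTCAAA.
Cdk1, chr20:19265043-19265292, plus strand: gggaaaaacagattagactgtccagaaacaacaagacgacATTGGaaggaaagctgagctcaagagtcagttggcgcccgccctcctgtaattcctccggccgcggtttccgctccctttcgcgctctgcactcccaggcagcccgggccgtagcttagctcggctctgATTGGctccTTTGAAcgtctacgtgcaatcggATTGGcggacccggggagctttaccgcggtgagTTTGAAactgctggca
Cdc20, chr5:137255800-137256049, minus strand: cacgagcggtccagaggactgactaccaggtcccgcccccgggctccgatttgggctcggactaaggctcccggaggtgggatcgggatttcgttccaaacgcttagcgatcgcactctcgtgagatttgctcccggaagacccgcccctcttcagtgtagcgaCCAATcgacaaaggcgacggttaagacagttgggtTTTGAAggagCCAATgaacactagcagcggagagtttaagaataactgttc
In Cdk1 a homology region begins 16 and another 72 bases before the start, and in Cdc20 one begins 51 bases before it, with a CCAAT box on either side. Shares were counted over 250 bases before and 50 after the start, a longer stretch than the one printed. Of 29 mitosis promoters with a sequence, 72.4% held TTTGAA and 72.4% CCAAT, against 15.9% and 38.0% of all measured genes with a sequence. In 36 DNA replication promoters the shares were 5.56% and 63.9%. In 32 luminal secretory promoters they were 18.8% and 62.5%.

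Genes of biosynthesis fell too. Of 57 cytosolic ribosomal protein genes, 51 fell and none rose, with a median of -0.73. Rplp0 went from 10.09, 10.17 and 10.17 to 9.06, 8.64 and 8.80, and Rpl3 from 11.70, 11.72 and 11.75 to 10.79, 10.84 and 10.77. In 4 lists chosen after their values were seen, 48 of 59 splicing factors and all 8 subunits of the cytosolic chaperonin fell. So did 22 of 31 histone genes and 10 of 16 GABA receptor subunits. The only rises were of 2 histone genes, with 1 further rise of a GABA receptor subunit without day 7 replicate 1. The GABA receptor list is not one of biosynthesis. Of its genes, 10 were above the background at day 7 and 5 at day 60. Hnrnpa1, a splicing repressor, fell by 1.74 ± 0.12 (SE), H1f5, a linker histone, fell by 3.25 ± 0.12, and Gabra2 fell by 3.17 ± 0.15. The histone genes that rose were Hist1h4b, by 2.45 ± 0.155 (SE), and Hist1h2bq, by 1.20; copies of histone genes are nearly alike and may share probes. The folding genes of the endoplasmic reticulum, by contrast, mostly rose.

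**Figure D3:**
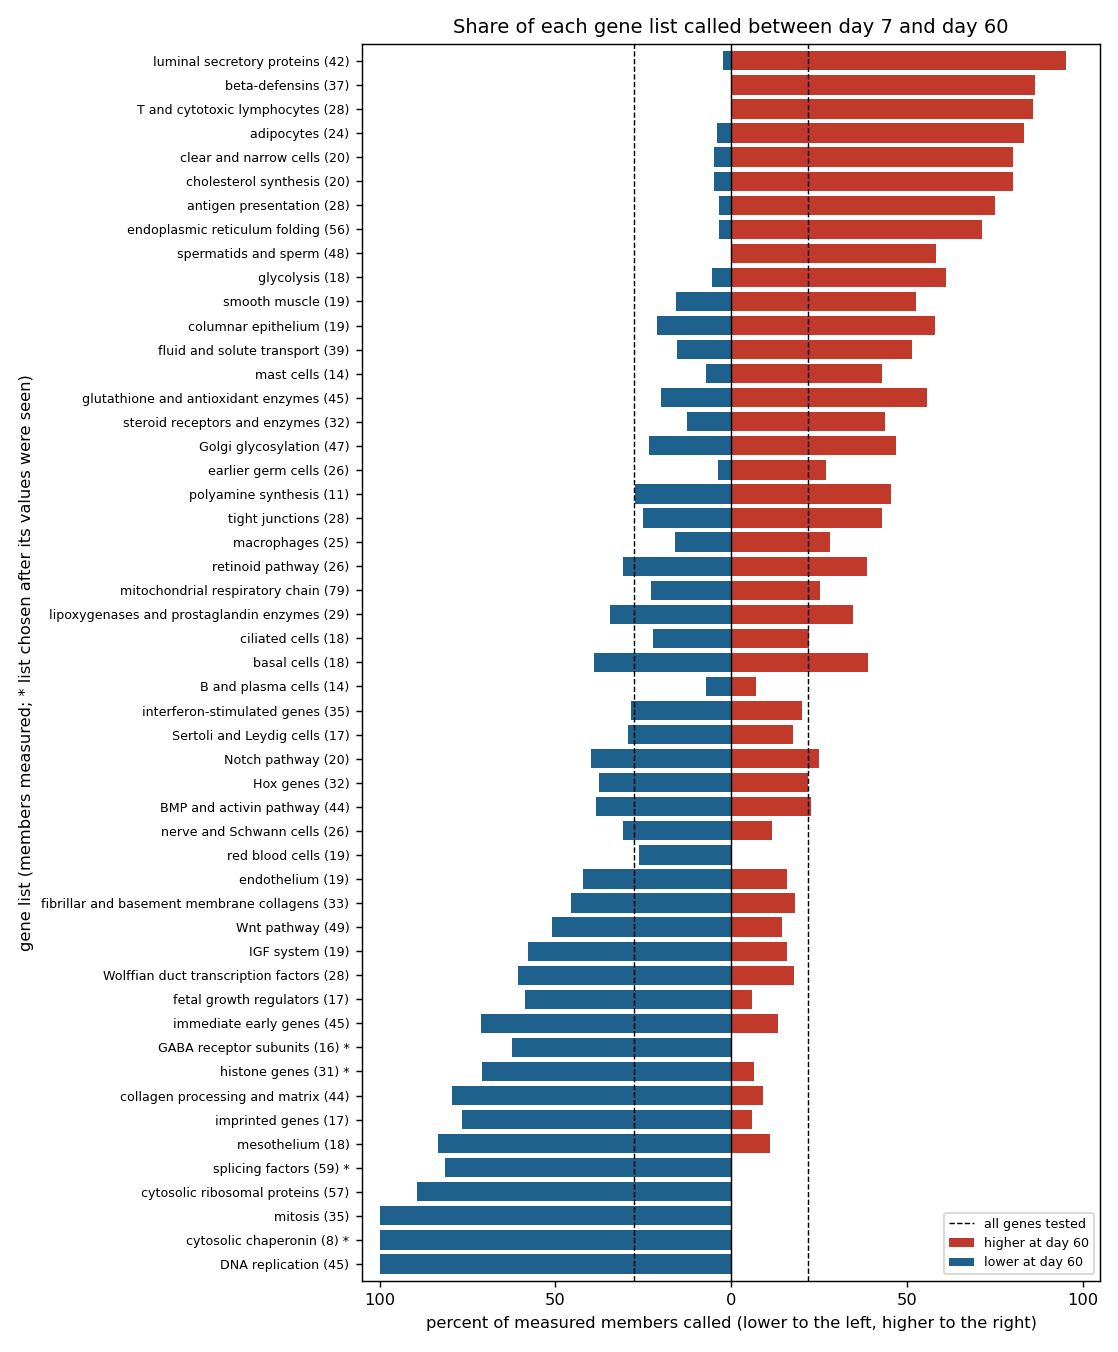
Bars give the percentage of each list's measured members that rose (red, right) or fell (blue, left) from day 7 to day 60, with the number measured in parentheses and dashed lines at 21.7% and 27.6%, the shares over all genes tested. Secretory, lymphocyte, adipocyte and clear cell lists lie at the top, and division, ribosome and matrix lists at the bottom.

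Genes of collagen processing, matrix and mesothelium mostly fell in the whole organ. Of 44 genes of collagen processing and matrix, 35 fell and 4 rose, with a median of -0.99. Postn, periostin, went from 12.18, 12.18 and 12.25 to 9.09, 9.33 and 9.28, and Vcan, the proteoglycan versican, from 9.72, 9.77 and 9.41 to 7.07, 7.05 and 7.34; Vcan was already at 6.92 at day 18. Omd, a keratan sulphate proteoglycan, rose by 1.49 ± 0.11 (SE). Collagens gave 15 falls and 6 rises of 33, where Col5a2 fell by 1.97 ± 0.13 and Col13a1, a transmembrane collagen, rose by 2.18 ± 0.12. Mesothelium, the outer covering, gave 15 falls and 2 rises of 18; Upk3b went from 8.04, 8.55 and 8.42 to 5.50, 5.25 and 5.43 and Msln, mesothelin, fell by 2.43 ± 0.15 (SE). The rises, Calb2 and Slpi, are genes that other cells also express. The mesothelium list's median in a pool went from 8.21 to 8.38 at day 7 to 6.30 to 6.52 at day 60, and its part in the fall of matrix genes was not tested.

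Muscle of the duct wall gave 10 rises and 3 falls of 19, with a median of 0.36. Synm, a muscle intermediate filament protein, rose by 1.40 ± 0.13 (SE) and Actg2, the smooth muscle gamma actin, went from 9.52, 10.03 and 9.30 to 10.88, 10.81 and 10.86, while Myocd, the master regulator of smooth muscle genes, fell by 1.13 ± 0.15. Of 363 microRNA genes on the array 28 rose and 20 fell, whereas 21.7% of all genes tested rose and 27.6% fell. A mature sequence was available for 344. The array reads the precursor's locus, not the mature molecule. The largest rise was of Mir1224, from 2.61 to 5.36 (at least 1.36-fold), and Mir219a1 rose from 5.04 to 6.39. Mir143 and Mir145, chosen here for their known place in smooth muscle, rose from 6.47 to 7.43 and from 4.23 to 5.66, the latter at least 1.60-fold, while Mir27a fell from 5.47 to 3.94, at least 1.48-fold. The mature sequences of the largest rise and of these 3 are shown with the seed, bases 2 to 8, in capitals.
rno-miR-1224: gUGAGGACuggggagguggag
rno-miR-143-3p: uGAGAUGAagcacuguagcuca
rno-miR-145-5p: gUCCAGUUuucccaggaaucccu
rno-miR-27a-3p: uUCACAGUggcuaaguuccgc
No seed was shared among the 4. In Mir143 the day 7 pools measured 6.20, 6.94 and 6.26 and the day 60 pools 6.97, 7.66 and 7.66, so the groups nearly met, and the adjusted p by limma was 0.0059.

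Vessel and nerve genes changed in both directions. Of 19 endothelial genes 8 fell and 3 rose; Cdh5, the cadherin of vessels, fell by 0.69 ± 0.08 (SE), and Vwf, von Willebrand factor, rose by 1.10 ± 0.12. Only 1 rise was left without day 60 replicate 2. In the nerve and Schwann cell list 8 of 26 fell (30.8%, near the 27.6% of all genes tested) and 3 rose (11.5%, against 21.7%). Th, the enzyme that starts catecholamine synthesis, went from 4.88, 4.66 and 4.55 to 8.30, 7.81 and 7.84, at least 8.36-fold, with 37.9% of the change at day 28. Dbh, the next enzyme in noradrenaline synthesis, differed by 0.12 ± 0.15 and Stmn2, a protein of neurons, by 0.27 ± 0.16, neither past the threshold. Ncam1, an adhesion protein, fell by 2.13 and Dcx fell by 4.53.

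Among immune genes, most of those for antigen presentation and for T and cytotoxic lymphocytes rose, whereas 12 of 14 for B and plasma cells did not pass the threshold. Of 28 genes of antigen presentation 21 rose and 1, Cd40, fell, with a median of 0.75. RT1-Da, an MHC class II chain, went from 8.28, 8.11 and 8.26 to 10.38, 10.57 and 10.67 and was at 10.57 at day 18. Of 28 genes of T and cytotoxic lymphocytes 24 rose and none fell, with a median of 0.69; Gzma, granzyme A, rose 4.26-fold from a day 7 mean of 5.08, close to the background, and Cd3e, a chain of the T cell receptor complex, rose by 0.66 ± 0.14 (SE). Macrophages gave 7 rises and 4 falls of 25 (28.0% and 16.0%, against 21.7% and 27.6% of all genes tested). Siglec1 and Cd163, receptors of resident macrophages, rose by 2.62 ± 0.12 and 1.46 ± 0.10, but the general markers Csf1r and C1qa differed by 0.17 and -0.05 and did not pass the threshold. Mast cells gave 6 rises, led by the protease Mcpt9, and 1 fall of 14, and B and plasma cells 1 rise and 1 fall of 14, with 3 rises without day 7 replicate 3, 2 rises without day 18 replicate 3 or 4, and 2 falls without day 60 replicate 1. Interferon-stimulated genes gave 10 falls and 7 rises of 35, with Isg20 rising from 8.27 to 10.82 and Mx2 falling from 6.92 to 5.81. These shares, 28.6% and 20.0%, were near the 27.6% and 21.7% of all genes tested. Lipoxygenase and prostaglandin genes split evenly, 10 and 10 of 29. Alox15 went from 9.38, 9.51 and 9.37 to 6.92, 6.94 and 6.52 and Ptgds, which makes prostaglandin D, rose 9.12-fold.

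Transcripts of spermatids and sperm that rose did so mostly after day 28. Of 48 genes of spermatids and sperm 28 rose and none fell, and 20 did not pass the threshold; without day 7 replicate 2 there was 1 fall. Smcp, a protein of the sperm mitochondrial sheath, had means of 3.60, 3.50 and 3.86 at days 7, 18 and 28 and then measured 9.79, 10.25 and 9.97 at day 60, at least 33.9-fold higher. Odf1, of the outer dense fibres of the tail, rose at least 12.3-fold, and Prm1, a protamine, went from 4.52, 4.88 and 4.64 to 7.53, 7.73 and 6.90. The 18 sperm genes that rose at least 2-fold had a median of 3.6% of the change at day 18 and 11.3% at day 28. Of 26 genes of earlier germ cells 7 rose (26.9%, against 21.7% of all genes tested). There was 1 fall (2 without day 7 replicate 2 or day 60 replicate 1). The largest rise, Tex101, a surface protein of germ cells, had 71.4% of its change at day 28. Among the markers of Sertoli and Leydig cells, Amh, Fshr, Insl3 and Cyp17a1 differed by -0.15 to 0.27 and did not pass the threshold. In that list 3 of 17 rose (17.6%), among them Cyp11a1, the enzyme that starts steroid synthesis, by 1.90. The 5 that fell (29.4%) became 3 without day 7 replicate 2, day 60 replicate 1 or day 60 replicate 2. Both shares were near those of all genes tested, 21.7% and 27.6%. Red blood cell genes gave 5 falls of 19 (26.3%, near the 27.6% of all genes tested). Of these, Hba-a1, a haemoglobin chain, fell by 0.61 ± 0.14 (SE). Only 3 falls were left without day 7 replicate 2, day 60 replicate 1 or day 60 replicate 3. Without day 60 replicate 3, 1 gene rose. Whether the rise of these transcripts came with sperm was not tested.

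Immediate early genes, which cells switch on within minutes of a stimulus and also during dissection, gave 32 falls and 6 rises of 45, with a median of -0.72. Egr1 went from 11.03, 11.17 and 11.39 to 8.78, 8.14 and 8.20, and Fosb from 7.69, 7.74 and 8.91 to 5.67, 5.69 and 5.72, where 1 day 7 pool stood above the others. Egr2 and Dusp5 went against the list, Egr2 from 5.88, 6.22 and 6.65 to 9.50, 9.35 and 9.32 and Dusp5 from 6.31 ± 0.32 to 8.54 ± 0.11 (SD, n = 3). The 17 members that fell at least 2-fold had a median of 84.2% of the fall at day 18. How the tissue was handled at each age is not given in the labels beyond freezing, and its part in these values was not tested.

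**Figure D4:**
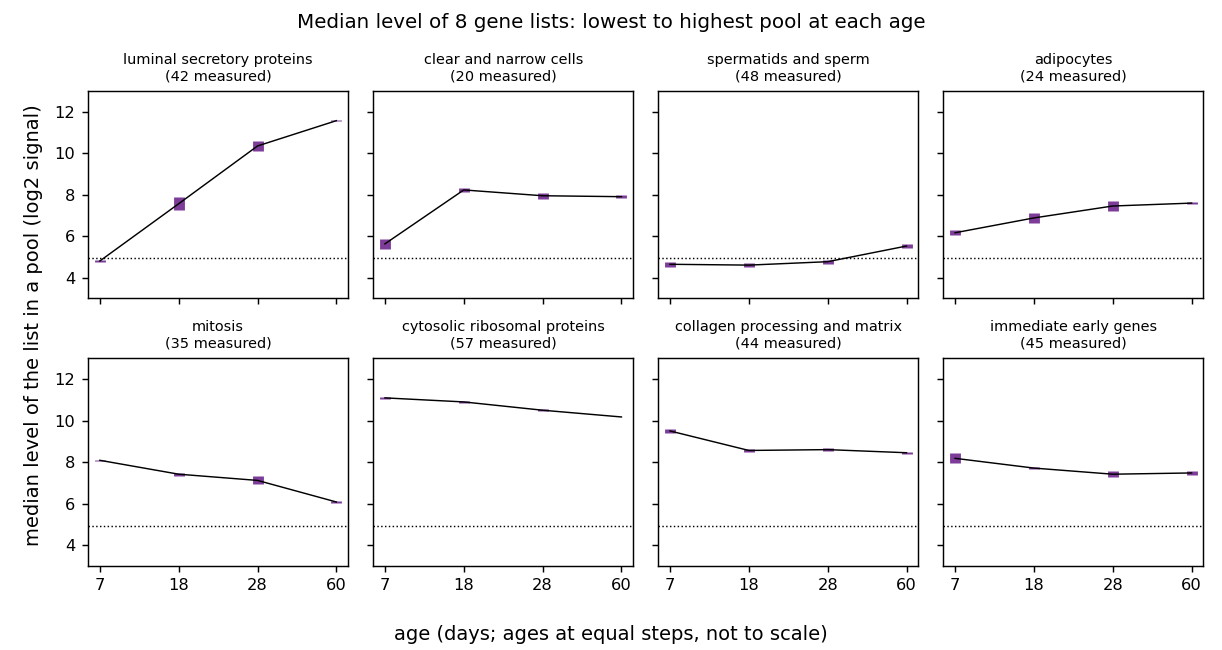
Bars run from the lowest to the highest pool's median log2 signal over the measured members of 8 lists at each age, with lines through the midpoints and the background dotted. The luminal secretory list climbs from 4.73 to 4.87 at day 7 to 11.55 to 11.58 at day 60 over all 3 intervals, clear cell genes reach 8.14 to 8.31 at day 18, and the sperm list leaves its early level only at day 60.

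The net comparison was spread unevenly over the intervals. Genes that rose at least 2-fold had a median of 40.2% of the change at day 18 and 74.8% at day 28, and those that fell at least 2-fold 54.2% and 77.9%. Late rises outnumbered late falls: 120 of 1280 rises and 5 of 1141 falls had under 25% of the change at day 28. Among the lists, matrix genes that fell at least 2-fold had a median of 81.6% of the fall at day 18 and histone genes 38.6%.

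Days 7 and 60 can also hide a course that left and came back. Comparing the mean of days 18 and 28 with that of days 7 and 60 also calls one-way changes that came mostly early or late. Serpina16, at 3.27, and Defb42, at -3.92, were both called in this way, so the counts are not counts of returns. The mean of days 18 and 28 was above that of days 7 and 60 for 3019 genes (16.6%) and below it for 3579 (19.7%), so that 45.8% of these calls were higher. Centring each array on its median changed the counts to 1904 and 4200, or 31.2% higher. The uncentred array medians reached 5.42 at the middle ages, against at most 5.23 at day 7 and 5.27 at day 60. The receptor genes used as background had pool medians of 2.87 to 2.93 at day 7, of 2.96 to 3.05 and 2.99 to 3.19 at the middle ages and of 2.94 to 2.99 at day 60, and 133 of them were called higher at the middle ages. Among these called genes, every middle pool lay above every end pool in 294 (1.62% of all genes tested). Every one lay below in 530 (2.92%). There were 2112 genes called at the middle ages that did not pass the threshold between day 7 and day 60.

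Tcp11, known from testis and sperm, measured 9.03, 8.57 and 8.76 at day 7, 6.34 to 6.87 and 6.09 to 6.89 at the middle ages and 8.07, 8.68 and 8.43 at day 60. Its net difference of -0.39 ± 0.21 (SE) did not pass the threshold (adjusted p = 0.146 by limma), whereas the middle ages minus the ends gave -2.07 ± 0.14 (adjusted p = 6.1e-08). Penk, the precursor of enkephalin peptides, was at 9.22 at day 7, had means of 8.09 and 8.18 at the middle ages and stood at 11.07 at day 60. Dlk1, an imprinted growth regulator, Cxcl13, a chemokine that attracts B cells, and Wfdc21 were lowest at day 18 or 28 and stood higher again at day 60, at 7.47, 6.35 and 8.34, without reaching their day 7 levels. Il1rn, the interleukin-1 receptor antagonist, was above the background in 7 of the 8 middle pools only, with means of 5.54 and 5.23 there against 3.76 at day 7 and 3.85 at day 60. Ces1e, a carboxylesterase, Defb11, Atp6v1b1, a subunit of the proton pump of clear cells, and Lrrc3 were highest at day 18 or 28 and stayed above their day 7 levels at day 60, by 3.61, 2.19, 2.58 and 1.12.

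**Figure D5:**
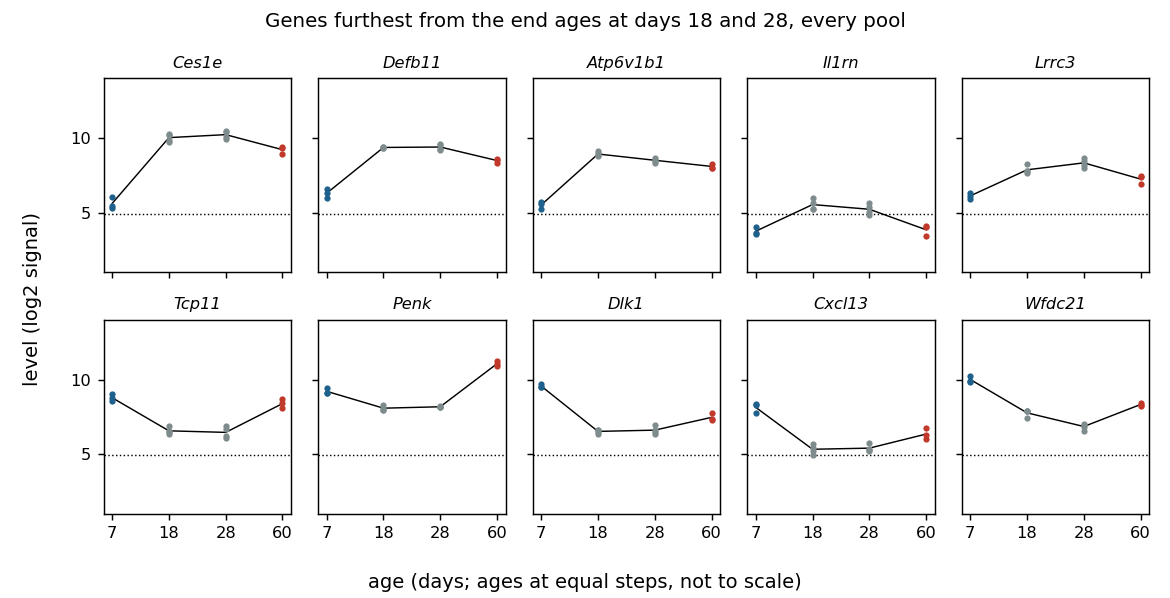
Level (log2 signal) of the 10 genes whose day 18 and day 28 pools all lay on one side of the day 7 and day 60 pools with the largest contrasts, 1 point per pool, lines through the means, dotted line at the background. The upper 5 are highest and the lower 5 lowest at the middle ages; Tcp11 begins at 8.79 and ends at 8.39.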

How the data were processed

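The values analysed were the authors' deposited log2 signals of 36685 transcript clusters in 14 pools. RMA and the Transcriptome Analysis Console are named in the submitters' processing notes; versions and the array's genome build are not given in the sources used here. RMA sets every array to 1 distribution before genes are summarised, so a shift shared by most genes is removed, and low signals are compressed. After summarising, the array medians still ran from 5.21 to 5.42. Probe names came from the platform's annotation: 18511 clusters had 1 gene symbol, 575 several and 17599 were not listed, and the cluster with the highest mean over the arrays stood for its gene, which left 18166 genes.

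limma 3.58.1 in R 4.3.3 fitted 1 mean per age over all 14 arrays, with 2 contrasts: day 60 minus day 7, and the mean of days 18 and 28 minus that of days 7 and 60. Tests were two-sided, with Benjamini-Hochberg adjustment over all genes and a threshold of 0.05. SE is that of the fit, and SD is over pools. The number of arrays and the spread between pools limit the precision, and the files give no depth. On simulated data of the same 18166 genes, 200 genes were changed for each contrast. For day 60 against day 7, 90% of those changed by a log2 of 1.0 and 44% of those changed by 0.5 were called. False calls made up 5.63% there and 6.98% for the middle ages, both above the nominal 5%. In the data 49.2% of genes were called, a far larger share than was changed in the simulation. The simulated shares therefore need not hold for the data.

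Genes were named by rule: the 12 largest called rises and falls without overlap of pools and the 2 largest in each of 47 lists, plus 5 genes in each direction for the middle ages. Symbols of predicted loci were passed over. Further genes, and 4 lists, were chosen after their values were seen. The members and lists were chosen with earlier results of these data known, so lists are described by counts and no list was tested. Alternatives were another normalization, filter, spread model, minimum fold, rule for clusters, a replicate block, and each pool left out. Replicate numbers did not pair the pools. No 2 arrays held identical values.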

Additional observations from a re-analysis of the deposited data

Results flagged for a closer look

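Of 170 groups of 4 pools examined, 8 had 1 pool far from the others, and chance flags about 1 in 20. Pate10 measured 7.92 in day 18 replicate 3 and 6.37 to 6.45 in the other pools of that age. Kcnip4 was at 5.59 in the same pool and at 5.81 to 5.84 in the others. The median of the luminal secretory list was also highest there, at 7.88 against 7.24 to 7.3. In day 18 replicate 2, Wfdc21 was at 7.44 against 7.87 to 7.9, and the median of the immediate early genes was 7.66 against 7.76 to 7.77. The median of the columnar epithelium list was 9.5 in day 18 replicate 4 and 9.33 to 9.34 in the others. At day 28 the median of the T and cytotoxic lymphocyte list was 5.95 in replicate 3 and 5.92 in the others, and that of the Sertoli and Leydig cell list was 5.37 in replicate 2 and 5.1 to 5.14 in the others. None of these pools entered the difference between day 7 and day 60 other than through the shared estimate of the spread.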

How the results depend on the processing

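All 34 genes named for the largest changes kept their direction and call in every setting in which they were measured. With each pool left out in turn, the counts ranged from 3587 to 4091 genes higher and 4531 to 5213 lower for day 60 against day 7, from 1271 to 1293 and 1116 to 1176 at 2-fold or more, from 2581 to 3256 and 3222 to 3533 for the middle ages, and from 476 to 520 and 529 to 567 over the members of the lists. A minimum fold of 1.5 left 1427 genes higher and 1390 lower, 173 and 178 for the middle ages, and 289 and 273 list members. Restricting the genes to those at or above the median level left 756 that fell at least 2-fold, since fewer genes were tested. Centring arrays on their medians gave 1904 genes higher at the middle ages, against 3019. Array medians were 5.21 to 5.23 at day 7, 5.25 to 5.27 at day 60 and up to 5.42 at the middle ages. Centring removes these differences. Why the medians differed was not tested. The count of list members called moved by over 1.5 times in 47 of 65 list counts under the minimum fold, in 21 under the level filter and in 2 under centring. Of the calls for day 60 against day 7, 44.0% were higher, 40.8% with centring and 47.2% with quantile normalization. Same-numbered pools did not deviate together (correlations from -0.1428 to 0.0456), and the replicate block gave 3877 genes higher and 4873 lower. All clusters, with or without a gene name, gave 4708 higher and 6452 lower, a setting chosen after seeing the data. Genes near the background have folds that are only lower bounds.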

Other observations

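Clusters without a listed gene showed the opposite skew in size to the named genes. Of 17599 such clusters, 1031 rose and 1686 fell from day 7 to day 60 (limma, adjusted over all 36685 clusters), 304 rose and 531 fell at least 2-fold, and 30 rose and 81 fell at least 8-fold. Among named genes the counts at 8-fold were 230 and 29. What these clusters measure is not known from the annotation used here.

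4 genes on no list, named after their values were seen, were among the large rises. Muc5b, a gel-forming mucin, differed by 5.87 ± 0.22 (SE), at least 46.5-fold. Abcb5, a membrane transporter of the ABC family, differed by 7.28 ± 0.20, at least 93.6-fold. Rgsl2h, a gene related to regulators of G-protein signalling, differed by 7.31 ± 0.64, and had 43.2% of the change at day 28. Slc7a11, the cystine importer that feeds glutathione synthesis, went from 3.62, 3.25 and 3.35 to 9.21, 9.29 and 9.35, at least 20.6-fold higher.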
